A study of Mus musculus with 15 samples.

Results

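The genes of respiratory complex I are the 42 gene symbols beginning with Nduf among the 19069 symbols of the RNA count files. By symbol, 38 name subunits (Ndufa, Ndufb, Ndufc, Ndufs and Ndufv) and 4 name assembly factors (Ndufaf1 to Ndufaf4). Their RNA and promoters were followed in NIH3T3, a permanent fibroblast line derived from mouse embryos, 6 h after ultraviolet light. The UV groups had their medium removed, were washed, received 80 J/m2 of UV-C at 254 nm and were then cultured for 6 h in fresh medium with DMSO, while the untreated groups carry no treatment in the labels. Whether untreated cells were washed and re-fed is not stated, so irradiation, washing, fresh medium and DMSO cannot be told apart in any comparison. RNA-seq had 3 UV and 3 untreated libraries. FAIRE-seq, which recovers DNA poorly crosslinked to protein and so marks open chromatin, and ChIP-seq for acetylated lysine 27 of histone H3 (H3K27ac), a mark of active promoters, had 2 UV and 2 untreated samples each. A single input DNA sample served both. All groups are of a single cell line, and the labels do not say whether replicates came from separate cultures, so the p-values take in only how far these libraries differ, which may be technical.

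Complex I is the first enzyme of the respiratory chain of the inner mitochondrial membrane. It takes electrons from NADH, hands them through flavin and iron-sulfur clusters to ubiquinone, and pumps protons. Its peripheral arm holds the N module, where NADH is oxidised, and the Q module, where ubiquinone is reduced, and its membrane arm is built from modules named after the mitochondrially encoded ND subunits. Core subunits, of which 7 are nuclear genes in this list, carry out catalysis and are shared with bacteria, while supernumerary subunits surround them. Assembly factors bind intermediates and leave the finished enzyme. The 7 core genes of the mitochondrial DNA were not analysed here. Ndufa4 and Ndufa4l2 match the symbols but are now placed outside complex I, Ndufa4 as a subunit of cytochrome c oxidase. Ndufaf8, an assembly factor, stands in the files under its older symbol 1810043H04Rik and was not among the members. It did not pass the edgeR test of UV over untreated RNA (log2 fold change 0.34, adjusted p = 0.352).

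Promoter sequences were available for 37 of the 42 genes, from RefSeq (GRCm38.p6, 250 bases before to 50 after the start of the gene). The deposited files themselves use mm9 and give no promoter coordinates. A set of 4 motifs known from promoters of respiratory genes was searched on both strands. The YY1 letters AAGATGGCG were in 5 of the 37 promoters (13.5%) and in 1.64% of the 27025 RefSeq promoters, the core of the nuclear respiratory factor NRF1 (GCATGCGC) in 4 (10.8% and 3.05%), the ETS letters CCGGAAG in 5 (13.5% and 9.93%), and the NF-Y letters CCAAT in 13 (35.1% and 41.1%). The RefSeq promoters were not limited to active ones. A match is a description of the letters and not a bound site. All 5 YY1 matches read forward and lay 23 to 44 bases after the start, inside the transcribed part. They are shown with their flanks, the match in capitals. The RNA of 3 of these genes rose after UV and that of the other 2 did not pass the test. Of all 37 tested subunits 28 rose, and no motif was tested against RNA.
Ndufc1 (chr3:51408915-51408943, minus strand, RNA higher): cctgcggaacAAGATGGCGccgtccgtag
Ndufs6 (chr13:73328433-73328459, minus strand, RNA higher): ggtcaccggcAAGATGGCGgcggtgct
Ndufs4 (chr13:114388045-114388069, minus strand, RNA higher): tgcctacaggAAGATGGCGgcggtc
Ndufa9 (chr6:126849097-126849125, minus strand, did not pass): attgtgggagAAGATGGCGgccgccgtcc
Ndufs7 (chr10:80249463-80249491, plus strand, did not pass): ggccgaggccAAGATGGCGgcgctggcgg

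The NRF1 core stood before the start in Ndufa11, Ndufa6 and Ndufa8, and both before and after it in Ndufaf4. In Ndufa11 and at the first place in Ndufaf4 the letters match on both strands and overlap, so that 10 bases are in capitals. Of these genes, Ndufa11 and Ndufa6 rose, Ndufa8 did not pass the test and Ndufaf4 fell.
Ndufa11 (chr17:56717692-56717721, plus strand): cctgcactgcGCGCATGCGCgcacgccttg
Ndufa6 (chr15:82354357-82354384, minus strand): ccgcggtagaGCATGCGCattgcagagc
Ndufa8 (chr2:36049329-36049356, minus strand): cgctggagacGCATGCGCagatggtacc

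Whole windows are given for 3 promoters picked as extremes of the RNA or chromatin values. Ndufaf4 was the member whose RNA fell, Ndufa12 had the highest H3K27ac difference of the 42 promoters, and Ndufv3 the lowest difference in both H3K27ac and FAIRE. Capitals mark the NRF1 core in Ndufaf4 and the NF-Y letters, read in reverse as ATTGG, in Ndufv3. None of the 4 motifs was found in the Ndufa12 window.
Ndufaf4 (chr4:24897833-24898132, plus strand): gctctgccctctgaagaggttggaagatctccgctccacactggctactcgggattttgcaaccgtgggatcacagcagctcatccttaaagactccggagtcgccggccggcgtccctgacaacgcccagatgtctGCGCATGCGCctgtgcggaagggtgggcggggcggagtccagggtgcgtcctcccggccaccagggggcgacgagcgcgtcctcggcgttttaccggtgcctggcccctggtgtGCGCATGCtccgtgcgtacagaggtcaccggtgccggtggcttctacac
Ndufa12 (chr10:94198785-94199084, plus strand): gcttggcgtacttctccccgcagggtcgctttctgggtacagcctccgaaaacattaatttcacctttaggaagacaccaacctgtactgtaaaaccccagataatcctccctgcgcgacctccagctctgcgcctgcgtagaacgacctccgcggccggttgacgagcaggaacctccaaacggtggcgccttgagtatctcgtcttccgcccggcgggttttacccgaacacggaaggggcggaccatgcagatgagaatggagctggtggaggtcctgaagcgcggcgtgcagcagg
Ndufv3 (chr17:31519865-31520164, plus strand): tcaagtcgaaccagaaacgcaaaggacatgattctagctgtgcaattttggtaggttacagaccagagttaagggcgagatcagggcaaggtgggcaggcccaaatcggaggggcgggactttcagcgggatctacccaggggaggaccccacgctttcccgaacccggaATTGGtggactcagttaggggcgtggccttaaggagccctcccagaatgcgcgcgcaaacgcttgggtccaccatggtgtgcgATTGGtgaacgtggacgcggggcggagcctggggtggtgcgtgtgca

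Subunit RNA rose after UV in most of the complex, by less than 2-fold for all but 3 genes, and no subunit fell. Of the 37 subunit genes with enough counts to test, 28 rose, 0 fell and 9 did not pass the edgeR quasi-likelihood test (Benjamini-Hochberg adjustment over 14925 genes, threshold 0.05). Among all tested genes 7.70% were higher and 12.4% lower. At an unadjusted p below 0.05 the subunits counted 33 higher and 0 lower, and DESeq2 called 26 higher and 0 lower. Their median log2 fold change was 0.75, a 1.69-fold level, against −0.01 for all tested genes. Among the 5940 tested genes within the range of mean level of the called subunits (22.4 to 233 library-size-scaled counts, CPM), 11.3% were higher, 16.2% were lower and the median was 0.03. In 34 of the 37 subunit genes every UV library lay above every untreated one, which held for 16.6% of all tested genes. The opposite order, every UV library below, held for 17.3% of all genes and for 0 subunits.

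The number of calls depended most on UV replicate 3. Without it 14 of the 28 calls were lost, at adjusted p of at least 0.0554, while the median was 0.71, and 3.76% of all genes were then higher. Leaving out any of the other 5 libraries kept at least 27 of the 28 calls. Without untreated replicate 2, which had the highest level of its group for 36 of 37 subunits, 34 subunits rose and the median was 0.99, the added calls being Ndufa8, Ndufa9, Ndufab1, Ndufb3, Ndufs3 and Ndufv2. Ndufa8 also passed without untreated replicate 1 or 3, and Ndufb3 without UV replicate 1. Library totals ranged from 14211528 to 22032701 counts, and UV replicate 1 stood apart with 17607 genes detected against 18350 to 18787 in the other libraries. Without that library 28 subunits were called, 27 of them shared with the full set. Fibroblast markers summed to 38560, 21210 and 23360 CPM in UV libraries 1 to 3, against 22410, 18110 and 16150 CPM in untreated libraries 1 to 3. Of these 9 markers 2 rose, Fn1 and Thy1. The 12 markers of other cell types summed to 14.9 to 26.9 CPM in every library, and of the 8 tested 1 rose, the lysosomal and macrophage gene Cd68. The other 4, Epcam, Krt18, Myod1 and Myog, were too low to test. The part of these markers in the subunit result was not tested. Fewer cells of a kind and less RNA per cell cannot be told apart in bulk RNA.

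**Figure D1:**
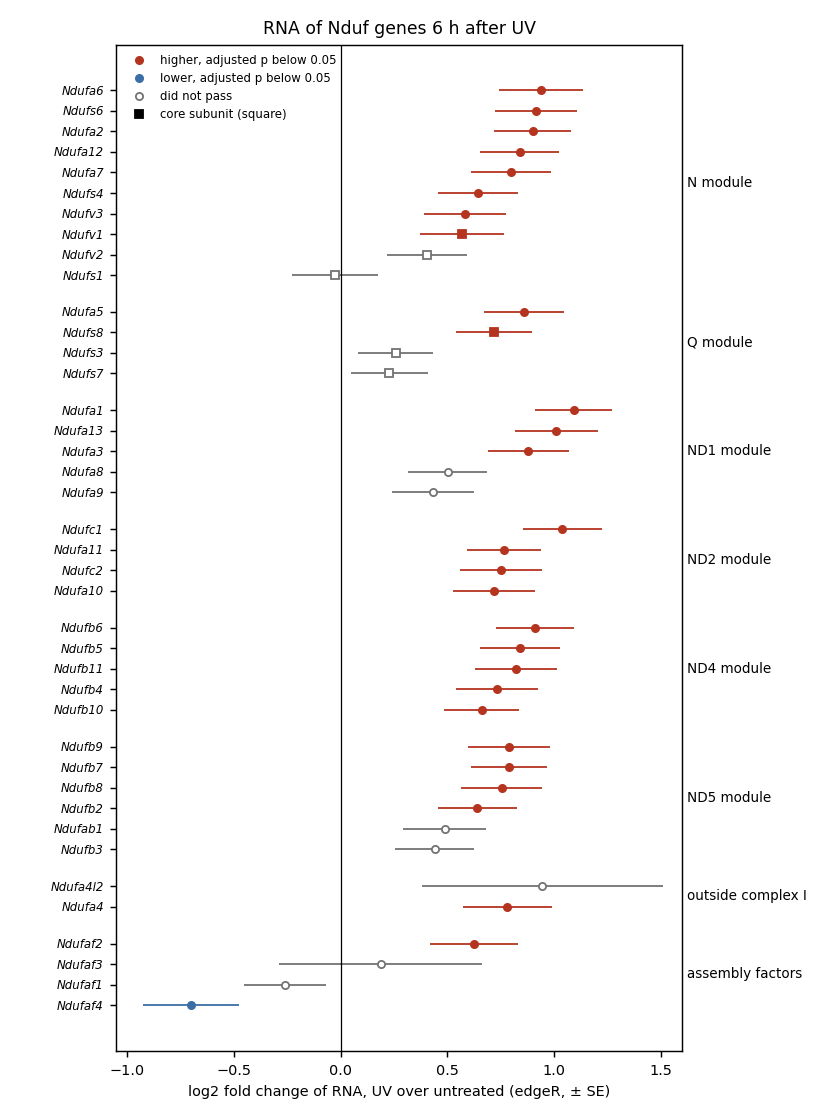
Log2 fold change of RNA, UV over untreated, for 40 tested Nduf genes (horizontal axis; points are edgeR estimates from 3 UV and 3 untreated libraries, bars ± SE), grouped by assembly module, with core subunits as squares. All subunit points except Ndufs1 (−0.03) lie right of 0, 27 of them past the threshold, while the 4 assembly factors spread from −0.70 to 0.62.

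Summed over the 38 subunit symbols, the share of a library's counts was 0.299%, 0.365% and 0.357% in UV libraries 1 to 3, against 0.231%, 0.277% and 0.252% in untreated libraries 1 to 3. The lowest UV share was above the highest untreated share. On the TMM scale the sums were 3724, 3498 and 3835 CPM after UV, against 2182, 2735 and 2124 CPM in untreated cells, again without overlap. The direction was therefore the same with and without TMM scaling. Both scales are relative to the counts of each library, so higher and lower mean relative to other RNA. The amount of RNA per cell was not measured. With library totals alone the median of all genes moved to −0.24 and that of the subunits to 0.53, so that the distance between them was 0.77, against 0.76 with TMM.

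The supernumerary subunits Ndufa1, Ndufc1 and Ndufa13 of the membrane arm had the 3 largest rises, each at least 2-fold. Ndufa1, a small single-span protein of the ND1 module, had 73.7, 72.4 and 82.7 CPM in UV libraries 1 to 3, against 32.2, 41.4 and 33.7 CPM in untreated libraries. The lowest UV value was well above the highest untreated one, and the log2 fold change was 1.09 ± 0.18 (SE, edgeR adjusted p = 0.000283). Ndufc1, a small protein of the ND2 module, had 37.9, 39.7 and 45.7 CPM after UV and 17.5, 24.9 and 17.6 CPM untreated (1.04 ± 0.19, adjusted p = 0.000629). Ndufa13, also known as GRIM-19 and described in interferon and retinoid-induced cell death, had 133, 142 and 149 CPM after UV, against 58.1, 83.3 and 68.5 CPM untreated (1.01 ± 0.19, adjusted p = 0.00108). The groups did not overlap in any of these genes, and untreated replicate 2 was the highest untreated library in each. The annotation places Rnf113a1 over Ndufa1, Tssk6 over Ndufa13, Tmco6 over Ndufa2, Rbm10 over Ndufb11, Ankrd12 over Ndufv2 and Shmt2 over Ndufa4l2. The strand of counting is not given, so reads of these neighbours cannot be told apart, and the values of these Nduf genes are uncertain to that extent.

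Core and supernumerary subunits, told apart by their part in catalysis, both held raised genes. Of the 28 tested supernumerary genes 24 rose, 0 fell and 4 did not pass, with a median log2 fold change of 0.79 and a range of 0.43 to 1.09. Without UV replicate 3, 14 rose. In all 28 the UV libraries lay above the untreated ones. The core genes described next had log2 fold changes of −0.03 to 0.72, and the difference between the 2 classes was not tested.

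The core genes Ndufv1 and Ndufs8 rose. Ndufv1 binds NADH and the flavin, and had 258, 209 and 239 CPM after UV, against 146, 174 and 156 CPM untreated (0.57 ± 0.20, adjusted p = 0.0491). Ndufs8, a carrier of iron-sulfur clusters, had 80.5, 77.1 and 79.4 CPM after UV and 43.6, 55.8 and 44.7 CPM untreated (0.72 ± 0.18, adjusted p = 0.00735). The groups stood apart in both genes, but Ndufv1 was near the threshold. Without UV replicate 3 the adjusted p was 0.295 for Ndufv1 and 0.066 for Ndufs8, and without UV replicate 1 it was 0.0668 for Ndufv1. The call of Ndufv1 was also lost with DESeq2 size factors in edgeR (0.0681), no low-count filter (0.171) or the replicate block (0.0683). It was kept in DESeq2 (0.0488), with library totals alone (0.0377) and with a 1 CPM filter (0.0157). Ndufs8 passed in each of these other fits.

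Ndufs1, the core subunit with most iron-sulfur clusters, did not pass the test. It had 238, 186 and 211 CPM in UV libraries 1 to 3 and 224, 238 and 184 CPM in untreated libraries, and the groups overlapped throughout. Its log2 fold change was −0.03 ± 0.20 (adjusted p = 0.978). The sign was positive, at 0.06 to 0.17, without untreated replicate 1, untreated replicate 2 or UV replicate 2. Ndufs3 (0.26 ± 0.18) and Ndufs7 (0.23 ± 0.18), both of the Q module, also had overlapping groups and did not pass (adjusted p = 0.391 and 0.492). Ndufv2, which holds an iron-sulfur cluster beside the flavin, had 123, 114 and 115 CPM after UV, against 85.0, 104 and 77.2 CPM untreated. Its libraries did not overlap, yet the change of 0.40 ± 0.19 did not pass (adjusted p = 0.155).

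**Figure D2:**
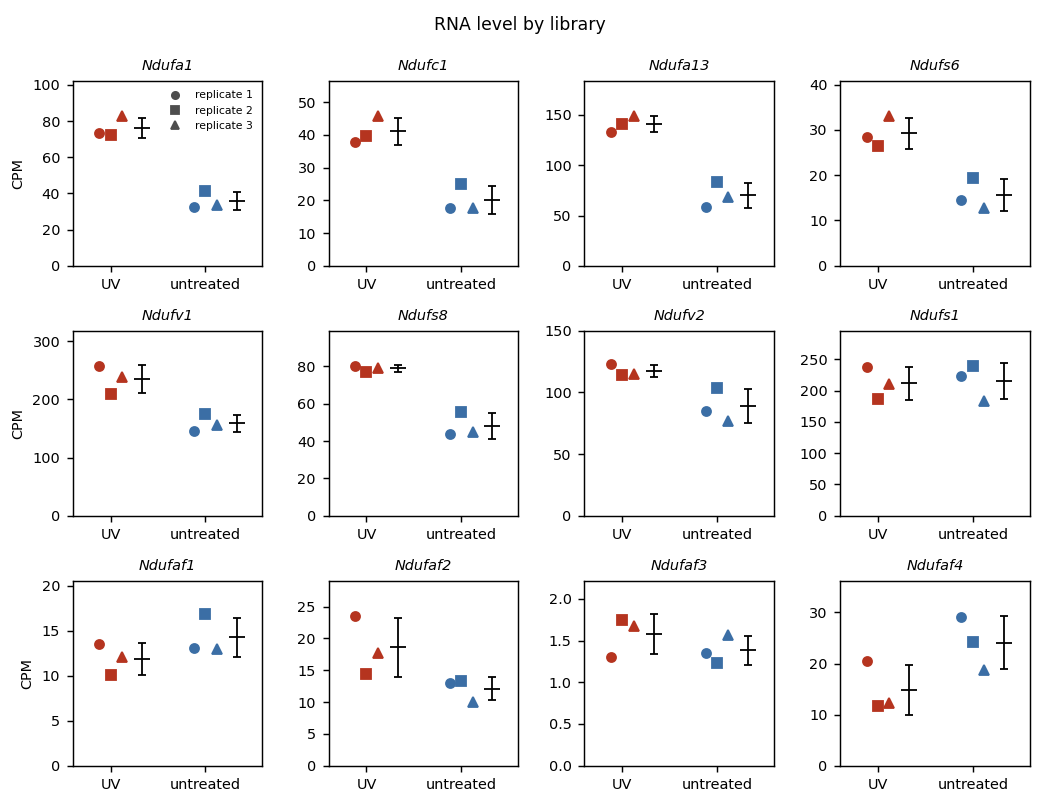
RNA level in CPM (vertical axes start at 0 and differ between panels) in UV (red, left) and untreated (blue, right) libraries for 8 subunits and the 4 assembly factors, with the replicate number as the marker shape and mean ± SD (n = 3 per group) beside the points. The groups are separate for Ndufa1, Ndufc1, Ndufa13, Ndufs6, Ndufv1, Ndufs8, Ndufv2 and Ndufaf2, and overlap for Ndufs1, Ndufaf1, Ndufaf3 and Ndufaf4.

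By module, all tested members rose in the ND2 and ND4 modules (4 of 4 and 5 of 5, medians 0.76 and 0.82). In the N module 8 of 10 rose (median 0.72), in the ND1 module 3 of 5 (0.88) and in the ND5 module 4 of 6 (0.70). The membrane arm had 16 of 20 higher with a median of 0.76. The Q module held the raised Ndufs8 and Ndufa5. Most of these counts were smaller without UV replicate 3, at 2 of 4 in the ND2, 2 of 5 in the ND4, 5 of 10 in the N and 1 of 6 in the ND5 module and 8 of 20 in the membrane arm, while the ND1 module kept 3 of 5. The ND1 module had 5 of 5 without untreated replicate 2 or with a 1 CPM filter, and the N module 5 of 10 with no low-count filter. Modules were not tested against each other.

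In the N module, the highest were Ndufa6 (0.94), a protein of the LYR family, Ndufs6 (0.91), which binds zinc, and Ndufa2 (0.90), which has a thioredoxin-like fold. Ndufs6 had 28.4, 26.3 and 33.0 CPM after UV, against 14.4, 19.5 and 12.7 CPM untreated (SE 0.19, adjusted p = 0.0021). Ndufa12 (0.84), Ndufa7 (0.80), Ndufs4 (0.64), whose loss in mice causes a disease like Leigh syndrome, and Ndufv3 (0.58) also rose. In all of these the UV libraries lay above the untreated ones. Ndufa12 had 118, 119.6 and 132 CPM after UV, against 65.8, 79.6 and 61.5 CPM untreated (SE 0.19, adjusted p = 0.00326). Ndufv3 had 65.6, 72.5 and 75.1 CPM after UV, against 37.0, 57.5 and 47.9 CPM untreated (SE 0.19, adjusted p = 0.0383), which makes it one of the calls nearest the threshold: without UV replicate 2 its adjusted p was 0.0523, and without UV replicate 3 0.222.

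In the Q module the supernumerary Ndufa5 rose by 0.86 ± 0.19 on the log2 scale (adjusted p = 0.00292). Beside Ndufa1 and Ndufa13, the ND1 module held Ndufa3 (0.88, higher), Ndufa8 (0.50, adjusted p = 0.068), a CHCH-domain protein of the intermembrane space, and Ndufa9 (0.43, adjusted p = 0.133). Ndufa8 and Ndufa9 did not pass, although their UV libraries were all above the untreated ones. In the ND2 module Ndufa11 (0.77), Ndufc2 (0.75) and Ndufa10 (0.72), which resembles deoxynucleoside kinases, rose with Ndufc1.

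The ND4 module had Ndufb6 (0.91), Ndufb5 (0.84), Ndufb11 (0.82), Ndufb4 (0.73) and the CHCH-domain protein Ndufb10 (0.66) all raised. In the ND5 module Ndufb9 (0.79), another LYR protein, Ndufb7 (0.79), Ndufb8 (0.75) and Ndufb2 (0.64) rose. Ndufab1, the mitochondrial acyl carrier protein, which also serves fatty acid synthesis and iron-sulfur cluster assembly, was at 0.49 ± 0.20 (adjusted p = 0.0924), and Ndufb3 at 0.44 ± 0.18 (adjusted p = 0.106). Neither passed, and both did without untreated replicate 2. Without UV replicate 3 the calls of Ndufb9 (adjusted p = 0.0722), Ndufb8 (0.0844) and Ndufb2 (0.148) were lost, as were those of Ndufb4, Ndufb10, Ndufb11, Ndufa10, Ndufc2, Ndufs4 and Ndufa4. Ndufb2 also lost its call in DESeq2 (adjusted p = 0.0563), with library totals alone (0.0647) and with no low-count filter (0.0514). Ndufs4 lost its call with library totals alone and with no low-count filter, and Ndufv3 in both of these and in DESeq2. Across the 28 raised subunits, Ndufa1 had the smallest adjusted p (0.000283) and Ndufv1 the largest (0.0491).

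Outside complex I, Ndufa4 rose by 0.78 ± 0.21 (adjusted p = 0.0118), with 298, 264 and 321 CPM after UV, against 159.8, 208 and 147 CPM untreated. Its paralog Ndufa4l2, known as a target of hypoxia-inducible factor, was scarce at 1.98, 1.15 and 1.16 CPM after UV and 0.57, 0.637 and 0.995 CPM untreated, and the log2 difference of 0.94 ± 0.56 did not pass (adjusted p = 0.299). Without this pair 27 of 35 subunits rose. Ndufs5, a CHCH-domain subunit of the ND2 module, was too low to test, with 0 counts in each UV library and 0, 0 and 1 in untreated libraries. A count of 0 allows up to 3 counts in a library. Its promoter carried H3K27ac, with log2 enrichments of 2.50 after UV and 2.35 untreated. RefSeq lists copies named after Ndufs5, Ndufa12, Ndufab1, Ndufs6, Ndufb4 and Ndufa11, none of them a row of the files, so the counts of these 6 genes are uncertain.

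The assembly factors were mixed. Of the 4, 1 rose, 1 fell and 2 did not pass, with a median log2 fold change of −0.04, and UV libraries stood wholly above untreated ones only in Ndufaf2. Ndufaf2, a paralog of the subunit Ndufa12 that holds its place while the N module is attached, had 23.6, 14.5 and 17.7 CPM after UV, against 13.0, 13.2 and 9.99 CPM untreated (0.62 ± 0.20, adjusted p = 0.0378). UV replicate 1 was its highest library. The call was lost without that library (adjusted p = 0.125), without UV replicate 3 (0.0778) and without untreated replicate 3 (0.0516), and in DESeq2 (adjusted p = 0.1).

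Ndufaf4, which joins Ndufaf3 on the early Q module, was the member that fell. It had 20.5, 11.6 and 12.3 CPM in UV libraries 1 to 3, against 29.1, 24.2 and 18.8 CPM in untreated libraries, and the ranges overlapped because UV replicate 1 lay above untreated replicate 3. The log2 fold change was −0.70 ± 0.23 (adjusted p = 0.0349). Without UV replicate 1 it was −1.02 (adjusted p = 2.43e-06), and the call was lost without untreated replicate 1 (adjusted p = 0.182), untreated replicate 2 (0.176), UV replicate 2 (0.0923) or UV replicate 3 (0.15), and in DESeq2 (0.115). Ndufaf3 was scarce, with 1.30, 1.75 and 1.68 CPM after UV and 1.35, 1.23 and 1.57 CPM untreated (0.19 ± 0.47, adjusted p = 0.925). Ndufaf1, of the complex that builds the ND2 module, had 13.6, 10.0 and 12.1 CPM after UV and 13.1, 16.8 and 12.9 CPM untreated (−0.26 ± 0.19, adjusted p = 0.44). In both genes the groups overlapped. With library totals alone, which lowered the median of all genes, Ndufaf1 was called lower (−0.50, adjusted p = 0.0185).

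The authors' deposited table of 2068 genes, whose highest adjusted p is 0.0999, lists 25 of the 42 members. All 25 are higher there, at log2 fold changes of 0.64 to 1.10 in the authors' deposited table, and none is an assembly factor. Of the 22 with an adjusted p below 0.05 in the authors' deposited table, all 22 rose in the fit used here. Both compare the RNA of this series 6 h after UV with untreated RNA, so the match is not independent support. Ndufv1, Ndufv3, Ndufaf2 and Ndufaf4 are among the members called here that the authors' table does not list. The share of higher genes among all 2068 was not set beside these counts.

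Genes that act on complex I under other names included some that fell. Of 13 tested assembly factors and partners with other names, 0 rose, 3 fell and 10 did not pass, with a median log2 fold change of 0.03, where 7.70% of all tested genes were higher and 12.4% lower. Without untreated replicate 2, 6 rose and 1 fell, without UV replicate 3, 0 rose and 1 fell, and with library totals alone, 0 rose and 5 fell. At an unadjusted p below 0.05, 2 were higher and 3 lower, and DESeq2 called 0 higher and 1 lower. Chchd4, the oxidoreductase that imports and oxidises CHCH-domain proteins, had 12.4, 6.33 and 8.46 CPM after UV, against 22.3, 20.3 and 15.7 CPM untreated (−1.10 ± 0.23, adjusted p = 0.00208), without overlap. Tmem186, of the ND2-module assembly complex, fell by 0.75 on the log2 scale (adjusted p = 0.0148). Dmac2, listed as Atp5sl, fell by 0.63 (adjusted p = 0.0253). Tmem186 lost its call without untreated replicate 2 or UV replicate 2 or 3 and in DESeq2 (adjusted p = 0.0547 to 0.101), and Dmac2 without UV replicate 3, without any 1 untreated library, in DESeq2 and with no low-count filter (0.0582 to 0.197). Timmdc1 and Coa1 were not analysed here.

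Regulators of respiratory and mitochondrial transcription held several that fell. Of 14 tested, 0 rose, 6 fell and 8 did not pass, with a median log2 fold change of −0.45, against the 12.4% lower among all tested genes and 16.2% in the range of mean level of the called subunits. Without UV replicate 3 the lowered regulators were 2 and without untreated replicate 2 they were 3. The unadjusted counts at p below 0.05 were 0 higher and 6 lower, and those of DESeq2 0 higher and 4 lower. Nrf1, nuclear respiratory factor 1, a transcription factor that binds the promoters of many respiratory genes, had 34.0, 26.3 and 27.6 CPM after UV, against 69.4, 64.7 and 53.9 CPM untreated (−1.10 ± 0.18, adjusted p = 0.000336). Tfam, which packages mitochondrial DNA and starts its transcription, had 45.9, 30.4 and 38.1 CPM after UV and 77.9, 85.1 and 66.2 CPM untreated (−1.0 ± 0.19, adjusted p = 0.00121). Neither overlapped between the groups, and both calls held without each library in turn. Tfb1m, a methyltransferase of mitochondrial ribosomal RNA, fell by 1.12 (adjusted p = 0.00631), and Polrmt, the mitochondrial RNA polymerase, by 0.78 (adjusted p = 0.00392). Without UV replicate 3 these 2 calls were lost, at adjusted p of 0.0553 for Tfb1m and 0.0631 for Polrmt, and without untreated replicate 2 that of Tfb1m was 0.0502. The other two, Yy1 (−0.59, adjusted p = 0.0331) and Gabpb1 (−0.54, adjusted p = 0.0316), a subunit of an ETS-type factor, were named after their values were seen, and lost their calls without untreated replicate 1 or 2 or UV replicate 2 or 3, and in DESeq2 (adjusted p = 0.0780 to 0.218). They stood near the threshold. The coactivator genes Ppargc1a (−0.16) and Ppargc1b (−0.62) and the nuclear receptor gene Esrra (0.12) did not pass.

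**Figure D3:**
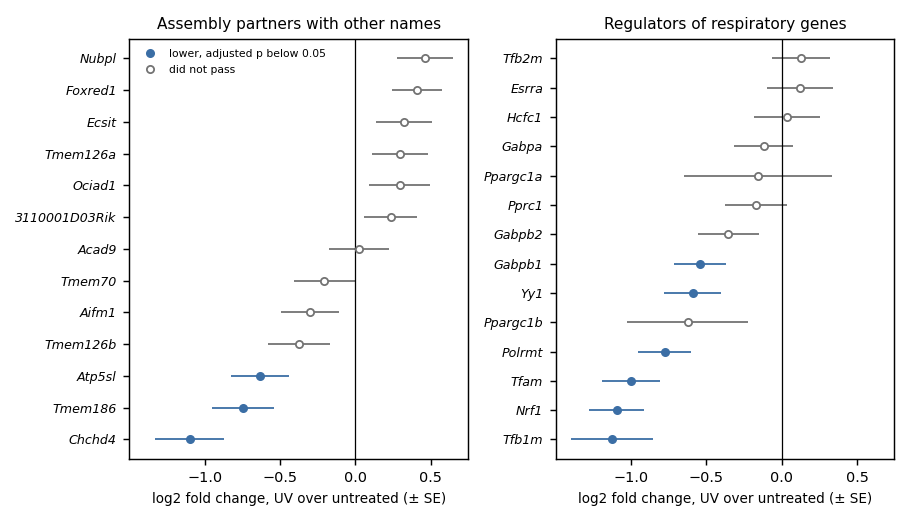
Log2 fold change of RNA, UV over untreated (horizontal axes; edgeR estimate ± SE, 3 libraries per group), for 13 assembly partners with other names (left) and 14 regulators of respiratory genes (right), under the symbols of the files. Filled points passed the threshold, and all 9 of them lie left of 0, with Chchd4 at −1.10, Nrf1 at −1.10 and Tfb1m at −1.12 the farthest.

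At promoters the question is whether acetylation and open chromatin of these genes differed after UV in the same cells. The promoter tables hold reads in 1000 bp around each of 21881 promoters, pooled over the 2 samples of a condition, with a log2 enrichment over input. They have no replicates, so no test was made. A difference of at least 1 between UV and untreated enrichment is called a gain or a loss. Nduf promoters were active ones: 41 of 42 were among the 10941 promoters ranked highest by mean H3K27ac enrichment and 40 of 42 among the 10941 ranked highest by FAIRE. Medians and counts are therefore set beside those top-ranked promoters as well.

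Subunit promoters had median H3K27ac enrichments of 3.14 after UV and 3.02 untreated, and the top-ranked promoters 3.10 in both. The median difference was 0.11 (95% binomial interval over 38 promoters −0.05 to 0.27), against −0.01 for all promoters and 0.04 for the top-ranked ones. For the 4 assembly factors it was 0.23. The interval is for the median, takes promoters as separate draws, and does not cover differences between samples. Single subunit promoters ranged from −1.23 to 1.37. Above 0 lay 23 of 38 subunit promoters and 3 of 4 assembly factor promoters, compared with 41.7% of all promoters and 52.3% of the top-ranked ones. These signs depended on the scale: of all 42 members 26 were above 0 as deposited, 23 after quantile normalization and 20 when reads were only scaled by the pool totals, a scale added after seeing the data, on which the subunit median was −0.020. Shares over all promoters were set beside the counts on the deposited scale only. Gains were 2.38% of all promoters and 4.38% of the top-ranked ones, losses 3.43% of all and 5.54% of the top-ranked, and among the 42 members there were 3 gains and 2 losses.

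The promoter of Ndufa12 had the highest difference, with 953 reads after UV and 358 reads untreated. Its enrichments were 4.52 after UV and 3.15 untreated, a difference of 1.37. Scaled by the reads of each pool in all promoters, the read ratio was 2.4 (95% interval 2.13 to 2.72), and such intervals cover counting error only. Ndufb2 gained 1.12 (1445 reads after UV and 654 untreated; 0.89 after quantile normalization) and Ndufaf2 gained 1.07 (413 reads after UV and 188 untreated). Scaled by the pools, the read ratios were 1.995 (95% interval 1.82 to 2.19) for Ndufb2 and 1.98 (1.67 to 2.37) for Ndufaf2. Each of these ratios is just under a log2 value of 1. Ndufa12 and Ndufaf2, the paralogs of which the first takes over the place of the second, were both among the 3 gains on the deposited scale. Whether this pairing has a meaning was not tested. Ndufs4 was just under the threshold at 0.97.

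Ndufv3 stood at the other end, with 81 reads after UV and 210 reads untreated. The enrichments were 1.58 after UV and 2.81 untreated, a difference of −1.23, and the scaled read ratio was 0.348 (95% interval 0.266 to 0.452). Ndufa13, among the 3 subunits with the largest rise in RNA, was the other loss at −1.13 (129 reads after UV and 299 untreated). Ndufs6 (−0.97) was just above −1. By module, the Q-module promoters Ndufs8 at −0.66, Ndufs7 at −0.37, Ndufa5 at −0.33 and Ndufs3 at −0.20 were below 0, and all 5 of the ND2 module above 0 (0.04 to 0.77). Scaled by pool totals alone, the read ratio of Ndufc1 was 0.937 (95% interval 0.789 to 1.11). The intervals of Ndufa11 (0.885 to 1.18), Ndufc2 (0.972 to 1.5) and Ndufs5 (0.855 to 1.21) included 1. That of Ndufa10 was 1.39 to 1.78, and those of the Q-module promoters named here lay below 1. With 1 pool per condition, this contrast between modules has no replicate check.

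**Figure D4:**
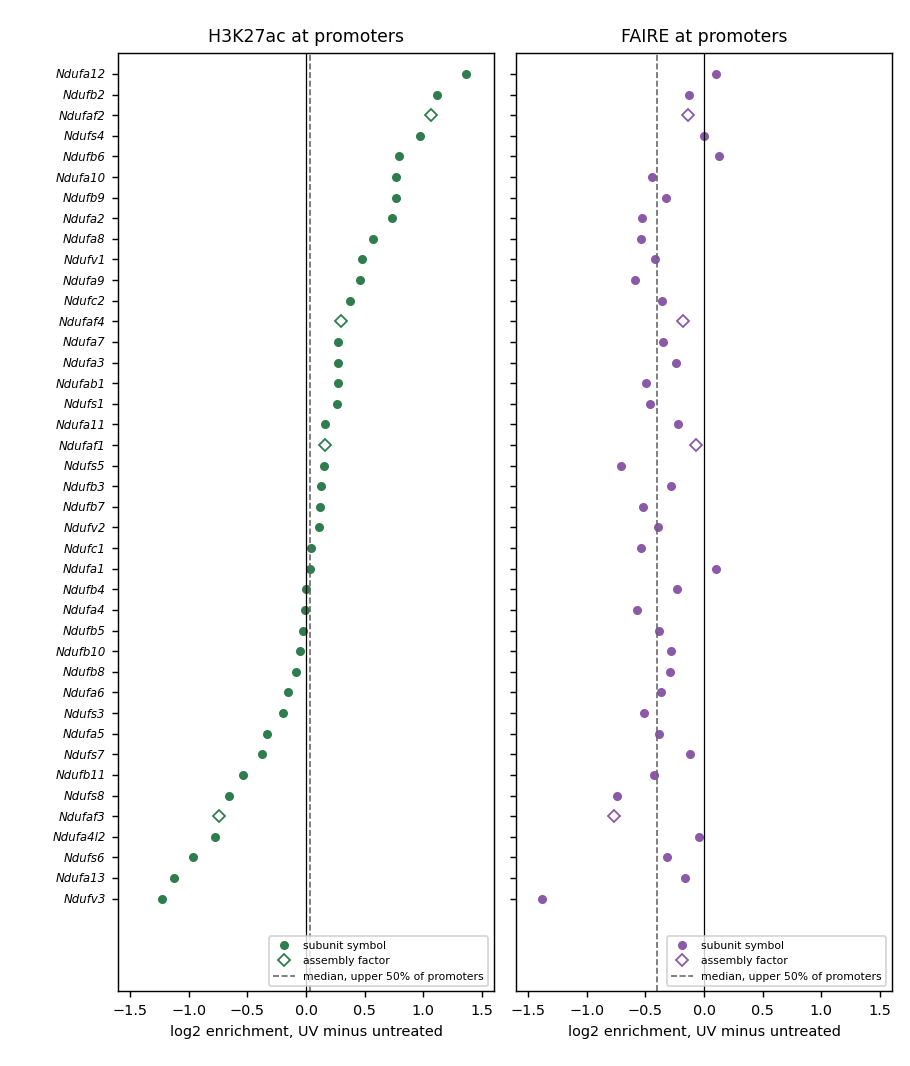
UV minus untreated log2 enrichment over input (horizontal axes) at 41 Nduf promoters for H3K27ac (left) and FAIRE (right), in the order of the H3K27ac difference. Each point is a pair of pooled samples without replicates, open diamonds are assembly factors, and the dashed line is the median of the top-ranked promoters (the upper 50% by mean enrichment), 0.04 for H3K27ac and −0.40 for FAIRE. H3K27ac points lie on both sides of 0, and on this deposited scale 37 of 41 FAIRE points lie left of it (the subunit median was 0.08 after quantile normalization), with Ndufv3 lowest in both.

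On the deposited scale FAIRE was lower after UV at 38 of the 42 promoters, but the sign of their median turned with quantile normalization. The median enrichment of the subunits was 1.03 after UV and 1.40 untreated, and that of the top-ranked promoters 0.87 after UV and 1.28 untreated. The median difference was −0.38 (95% binomial interval over 38 promoters −0.46 to −0.28), against −0.17 for all promoters and −0.40 for the top-ranked ones. For the assembly factors it was −0.16. The interval is for the median on the deposited scale and takes promoters as separate draws, while single subunit promoters ranged from −1.38 to 0.13. The interval does not cover differences between samples and is no test of a FAIRE change. Of the 42 promoters 4 were above 0, near the share of 10.1% in the top-ranked promoters, while in all promoters it was 29.9%. There was 1 loss among the members and 0 gains, where losses made up 1.05% of all promoters and 2.05% of the top-ranked ones, and gains 0.00457% of all and 0.00914% of the top-ranked. The sign of these medians depended on the scaling: centred on all promoters the subunits were at −0.20 and the assembly factors at 0.01, and after quantile normalization at 0.08 and 0.24. Of the 42 members 25 were above 0 after quantile normalization, and 25 when reads were only scaled by the pool totals. Shares over all promoters on these scales were not set beside the counts, so no FAIRE rise at the members is read from them. The FAIRE pools held 637080 reads in promoters after UV and 1032412 untreated, and the 42 members had 13 to 118 reads each after UV and 18 to 217 untreated.

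Ndufv3 was the FAIRE loss, with 48 reads after UV and 168 untreated. Its enrichments were 1.19 after UV and 2.56 untreated, a difference of −1.38, and −0.85 after quantile normalization. The read ratio, scaled by the pools, was 0.463 (95% interval 0.329 to 0.641). This interval covers counting error only, at a promoter picked as the lowest of 42, and is no test. Next were Ndufaf3 at −0.77 (19 reads after UV and 50 untreated) and Ndufs8 at −0.74 (106 reads after UV and 217 untreated; −0.17 after quantile normalization). Their scaled read ratios, 0.616 (95% interval 0.343 to 1.06) for Ndufaf3 and 0.792 (0.622 to 1.003) for Ndufs8, had intervals of the same kind that include 1. The highest differences, at Ndufb6 (0.13), Ndufa12 (0.11) and Ndufa1 (0.10), were close to 0. On the deposited scale, 22 of the 42 promoters were above 0 in H3K27ac and below 0 in FAIRE, 16 below 0 in both and 4 above 0 in both. Among the top-ranked promoters of each assay, 52.3% were above 0 in H3K27ac and 10.1% in FAIRE. No joint share over all promoters was set beside these counts, so they are not read as a trait of the members. Across the 42 genes, which share the same pools and input, Pearson's r between the 2 differences was 0.43 and Spearman's rho 0.26. Ndufv3, the lowest in both assays, enters this r, and r without it was not computed.

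The differences in promoter chromatin and in RNA were set side by side gene by gene. Across the 41 tested members, which share libraries, Pearson's r between the RNA log2 fold change and the H3K27ac difference was −0.05 and Spearman's rho −0.12, and with the FAIRE difference r was 0.09 and rho 0.22. These are descriptions over genes, which are not independent replicates. Of the 29 members with raised RNA, 17 had an H3K27ac difference above 0 and 12 below 0 on the deposited scale. In FAIRE 4 were above 0 and 25 below. Members that did not pass had 7 above and 4 below in H3K27ac, and 0 above and 11 below in FAIRE. Among the top-ranked promoters 52.3% were above 0 in H3K27ac and 10.1% in FAIRE. After quantile normalization 19 of the 29 raised members were above 0 in FAIRE and 10 below. With reads only scaled by the pool totals these FAIRE counts were also 19 and 10, while 13 were above 0 in H3K27ac and 16 below. Shares over all promoters on these other scales were not set beside the counts. Single genes differed. Ndufa12 and Ndufb2, the second with the limits given above, had more RNA and an acetylation gain, Ndufa13 and Ndufv3 more RNA and an acetylation loss, and Ndufa1 and Ndufc1, with the largest rises in RNA, had H3K27ac differences of 0.03 and 0.04. Ndufaf4, whose RNA fell, had 142 H3K27ac reads after UV and 112 untreated, a difference of 0.30, and a FAIRE difference of −0.18. Ndufs1, with the lowest RNA log2 fold change of the subunits, was at 0.27 in H3K27ac and −0.46 in FAIRE.

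**Figure D5:**
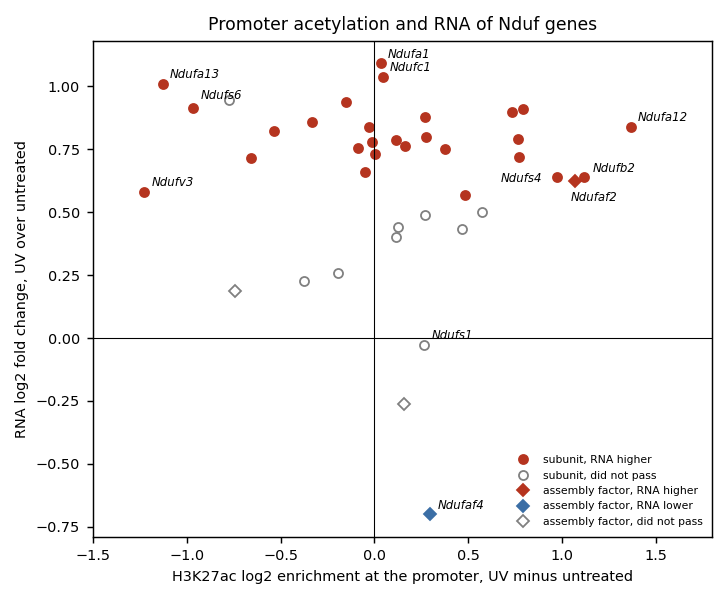
RNA log2 fold change, UV over untreated (vertical axis, edgeR, 3 libraries per group), against the UV minus untreated H3K27ac log2 enrichment at the promoter (horizontal axis, pooled samples) for 40 tested Nduf genes. Raised subunits (red) spread from −1.23 to 1.37 along the horizontal axis at RNA values of 0.57 to 1.09, and the assembly factor Ndufaf4 (blue) lies at 0.30 and −0.70.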

How the data were processed

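RNA, FAIRE and H3K27ac were measured in NIH3T3 cells, in 15 samples in all. The submitters' processing notes name the build mm9 and the tools TopHat, Bowtie 0.12.9, DESeq2 and MACS2, without the role of each. The RNA values are raw read counts per gene symbol, deposited by the authors per library. The promoter tables give, per the file headers, read counts in 1000 bp for each pooled condition and the input, and log2 enrichments that the authors deposited. Each enrichment equals the log2 ratio of reads plus 16 to scaled input plus 16, which was checked on every promoter, with an input scale of 0.712 for UV and 0.706 for untreated H3K27ac, and 0.528 for UV and 0.657 for untreated FAIRE. DMSO columns were read as UV, since the labels' protocol gives DMSO to irradiated cells, and 4 other columns of values were not used. The adjusted p-values and log2 fold changes of the authors' deposited comparison were only listed beside the results.

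Counts were fitted in R 4.3.3 with edgeR 4.0.16 (filterByExpr, TMM, glmQLFit, quasi-likelihood F test) and adjusted by Benjamini-Hochberg over 14925 genes, with a threshold of 0.05. CPM values use TMM-scaled totals. The standard error is the log2 fold change divided by the square root of F, and the common biological coefficient of variation was 0.237. The 6 RNA libraries held 14211528 to 22032701 counts. The labels give no batch. Promoters, motifs and figures were computed in Python 3.11.15 (pandas 2.3.3, scipy 1.17.1, matplotlib 3.10.9). Intervals cover counting error, or are for a median with promoters taken as separate draws, and do not cover differences between samples.

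Genes named are all called members, the 7 nuclear core subunits, all Ndufaf genes, the 4 highest and 4 lowest subunits, the 3 highest and 3 lowest promoters per assay, and up to 4 called genes of each other list, with exceptions stated; 1 gene is not reported here and is left out of the figures, though counts over all members include it. Members, lists and rules were chosen with earlier results of these data known. Alternatives were DESeq2 1.42.0, its size factors, library totals alone, other count filters, the replicate number as a block, each library left out, and, for promoters, centring, quantile normalization, the upper 50% by enrichment and 1 read added in place of 16 or reads scaled by pool totals alone, the last 2 chosen after seeing the data.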

Additional observations from a re-analysis of the deposited data

How the results depend on the processing

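The count of 28 raised subunits was 23 to 30 with DESeq2, its size factors, library totals alone, no low-count filter, a 1 CPM filter or the replicate block, 27 without Ndufa4 and Ndufa4l2, and 14 (without UV replicate 3) to 34 (without untreated replicate 2) with a library left out; 0 fell in each. Their median was 0.53 with library totals alone and 0.69 to 0.99 with a library left out; the median of all genes was −0.24 with library totals alone. Raised assembly factors were 0 with DESeq2, library totals alone or no filter, and 0 to 1 with a library left out; lowered ones 0 with DESeq2, 2 with library totals alone, and 0 to 1. Their median was −0.27 with library totals alone and −0.070 to 0.11 with a library left out. Of the other genes acting on complex I, 9 were called, 5 with DESeq2, 14 with library totals alone, 6 with no filter, and 3 (without UV replicate 3) to 12. Values near 0 changed sign for Ndufaf3 (−0.038) and Ndufs7 (−0.011) with library totals alone and for Ndufs1 (−0.135 to 0.167) with a library left out. FAIRE medians of −0.38 and −0.16 for subunits and assembly factors were −0.20 and 0.012 centred and 0.078 and 0.24 after quantile normalization, and 0.041 and 0.27 with reads scaled by pool totals alone; those of H3K27ac kept their sign except the subunits with pool totals alone (−0.020). The cause of these differences was not tested.

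Same-numbered libraries correlated at 0.155, −0.58 and 0.504 in their deviations from the group mean, and differently numbered ones at −0.707 to 0.683. Deviations within a group depend on each other, so these values do not settle whether the numbers pair the libraries. With the replicate block 28 subunits rose, 27 of them shared, with Ndufv1 lost and Ndufab1 added. A choice among promoter rows per gene was not run, since each gene has 1 row. With 13 to 118 FAIRE reads per member after UV, depth limits what single promoters show.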
